A study of Caenorhabditis elegans with 6 samples.

Results

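The DNA replication licensing genes examined here are 10 genes, *mcm-2*, *mcm-3*, *mcm-4*, *mcm-5*, *mcm-6*, *mcm-7*, *mcm-10*, *cdc-6*, *cdt-1* and *gmn-1*. They were chosen by their WormBase symbols, which found all 10 among the 46772 genes with a deposited count. RNA from dissected gonads of young adult hermaphrodites of *Caenorhabditis elegans* was sequenced from wildtype (WT, strain N2) and *set-2(bn129)* animals, with 3 libraries of each genotype. *set-2* encodes the H3K4 methyltransferase of the COMPASS complex, *bn129* is a loss-of-function allele, and the mutants were homozygotes born to heterozygous mothers. Each sample pooled distal gonad arms of several animals, severed at the bend. No agent was given to either group.

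Before S phase, origins of replication are licensed by loading of the MCM helicase, a ring of the subunits MCM-2 to MCM-7. The origin recognition complex and CDC-6 recruit the helicase, CDT-1 brings it to the origin, and geminin, encoded by *gmn-1*, binds CDT-1 and prevents loading at the wrong time. MCM-10 acts after loading, when the helicase is activated and begins to unwind DNA. In the adult gonad, the distal mitotic zone is where germ cells cycle, and a last round of replication precedes entry into meiosis.

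Each library held between 23403396 and 30724547 counts, and genes with enough counts for a test numbered 9431. The *set-2* transcript, which checks the labels, was at 149, 161 and 151 CPM in WT libraries and 87.3, 94.1 and 99.2 CPM in *set-2* libraries (CPM, the usual scaling of counts to library size, here with TMM factors), -0.71 on the log2 scale with an edgeR adjusted p of 2.9e-06. Ribosomal RNA genes held 13.6% to 14.9% of counts in WT and 8.06% to 10.6% in *set-2* libraries. Transcripts of muscle and intestine marker genes also differed by genotype. Of 14 muscle markers tested, 14 were lower in *set-2* gonads, and the list summed to 277 to 485 CPM in WT against 198 to 230 CPM in *set-2* libraries. Of 15 intestine markers tested, 12 were lower, with sums of 351 to 781 CPM against 170.0 to 272 CPM. Sums were also lower without overlap for somatic gonad markers (62.5 to 78.6 against 36.5 to 39.6 CPM) and hypodermis markers (257 to 418 against 198 to 223 CPM). Of 5 tested in each list, 1 and 3 were called lower. Oocyte markers summed to 9958 to 10143 CPM in WT against 9731 to 9953 CPM in *set-2* libraries, and 3 of 12 were lower. Germline markers were abundant in both genotypes but also differed. Of 10 tested, 6 were lower and 1 was higher in *set-2* gonads, and the list summed to 4969 to 5419 CPM in WT against 4117 to 4843 CPM in *set-2* libraries, without overlap. The largest falls in mean CPM were those of *cgh-1*, from 1163 to 784, and *car-1*, from 726 to 469. *him-3* rose by 0.39 (log2, edgeR adjusted p = 7.8e-05), and *glh-1*, *pgl-1* and *htp-3* did not pass (-0.13, 0.08 and 0.07). Of 12 sperm markers, 10 had 3 counts or fewer in every library, and the 1 that could be tested, *spe-9*, rose from 5, 6 and 5 counts in WT to 56, 57 and 43 counts in *set-2* libraries (log2 fold change 3.08, edgeR adjusted p = 5.6e-05).

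All 10 licensing genes passed the filter on low counts, with between 1206 and 17228 counts in each library. At such counts the error of counting alone is 0.762% to 2.88% of a value, while the coefficient of variation between replicates lay between 1.06% and 7.87%. Between genes, levels are compared as RPKM (CPM per kilobase of annotated exon). In WT gonads the highest levels were those of *mcm-7* (187 ± 5.79 RPKM, SD, n = 3) and *mcm-6* (186 ± 2.36 RPKM, SD, n = 3), whose libraries overlapped. Below them lay *mcm-3*, *mcm-4* and *mcm-5*, at 145, 141 and 141 RPKM, and *mcm-2* at 109 ± 7.30 RPKM (SD, n = 3). The libraries of *mcm-4* overlapped those of both others, while *mcm-3* lay above *mcm-5* in all WT libraries. The loader gene *cdc-6* (69.0 ± 0.734 RPKM), the inhibitor gene *gmn-1* (43.2 ± 0.966 RPKM), *mcm-10* (28.7 ± 1.13 RPKM) and the loader gene *cdt-1* (19.8 ± 0.662 RPKM) followed, each separate from its neighbours in all libraries (SD, n = 3). Among the genes tested, the WT level of the helicase subunits stood between the 90.4th and the 95.5th percentile, and that of *cdt-1* at the 50.2nd. In *set-2* gonads the order of the lower 5 genes was the same, while *mcm-6* (216 ± 2.83 RPKM) now stood apart above *mcm-7* (181 ± 5.25 RPKM, SD, n = 3).

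**Figure D1:**
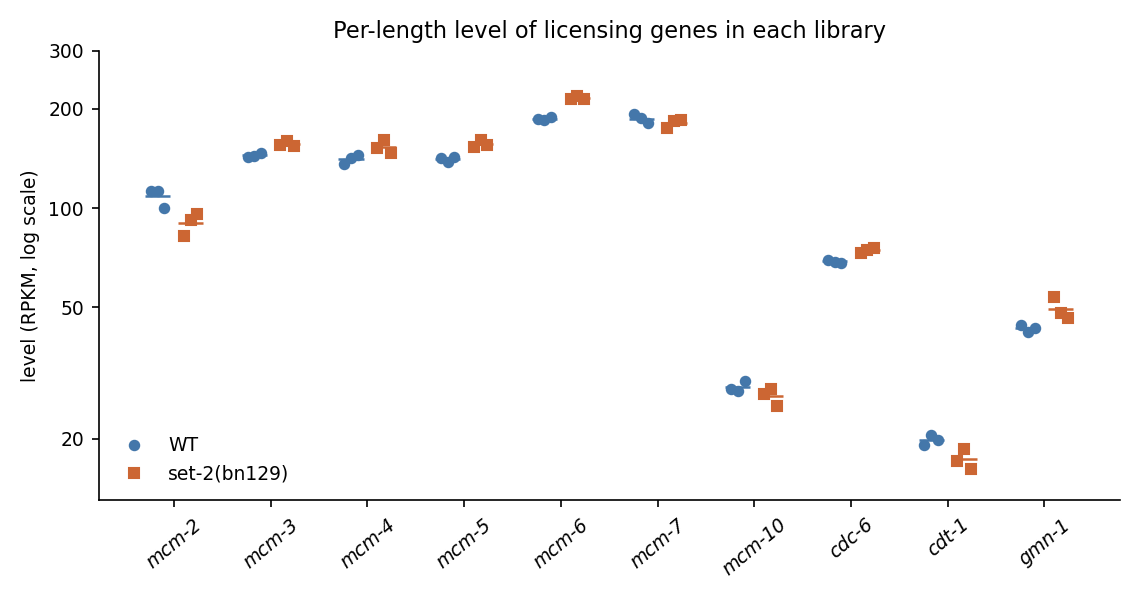
Level of each licensing gene in RPKM (log axis) in the 3 WT libraries (circles) and the 3 *set-2(bn129)* libraries (squares), with the mean of each group as a line. The helicase subunit genes lie above all others in both genotypes, and *mcm-2* is the lowest of them, at 109 RPKM in WT and 90.2 RPKM in *set-2* gonads.

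The question of the comparison was which licensing genes differed between *set-2* and WT gonads, and in which direction. Of the 10 genes, 8 passed an adjusted p-value of 0.05, against 41.4% of all genes tested (edgeR's quasi-likelihood test, Benjamini-Hochberg adjustment over all genes tested, n = 3 libraries per genotype). Among genes within the same range of mean CPM as the members, 47.7% passed. In *set-2* gonads, 6 of the 10 were higher (*mcm-3*, *mcm-4*, *mcm-5*, *mcm-6*, *cdc-6* and *gmn-1*), where 20.3% of all genes were, and 2 were lower (*mcm-2* and *cdt-1*), where 21.1% of all genes were. None of the 10 genes was past 0.58 on the log2 scale, the fold threshold used, with edgeR or with DESeq2's Wald test, at an adjusted or an unadjusted p-value, while 15.3% of all genes passed both thresholds. In 8 of the 10 licensing genes the libraries of the genotypes did not overlap, as in 52.9% of all genes tested. In 6 of them all *set-2* libraries were above all WT libraries (26.8% of all genes), and in 2 below (26% of all genes). The median absolute log2 fold change was 0.14 over the licensing genes and 0.20 over all genes tested. All genes tested include weakly expressed ones. Neither this median nor the share past the fold threshold was taken within the members' range of mean CPM. The lowest bound of the 10 95% confidence intervals was -0.40 and the highest 0.31, both within the fold threshold. Because the libraries are bulk RNA, fewer cells of a kind and less RNA per cell cannot be told apart.

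These calls were close to the threshold for several genes, and single libraries decided some of them. Without WT replicate 2, 2 genes were called higher and 1 lower. Without *set-2* replicate 2, 3 were higher and 2 lower. Without *set-2* replicate 1, 4 were higher and 1 lower, and without *set-2* replicate 3, 5 were higher and 1 lower. The genes that passed in all 6 of these fits were *mcm-2*, *mcm-5* and *mcm-6*. With the level of muscle and intestine markers as a covariate, which itself differs between the genotypes, only *mcm-2* passed (log2 fold change -0.46, adjusted p = 0.049 from edgeR). Over all 14 alternative fits, this one among them, the rises of *mcm-5* and *mcm-6* were never under 0.13 and 0.20 (log2). In the covariate fit, however, their edgeR adjusted p-values were 0.35 and 0.14, so that no rise was shown by that fit. The smallest changes of *cdc-6* and *cdt-1* over the 14 alternative fits were 0.065 and -0.063.

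**Figure D2:**
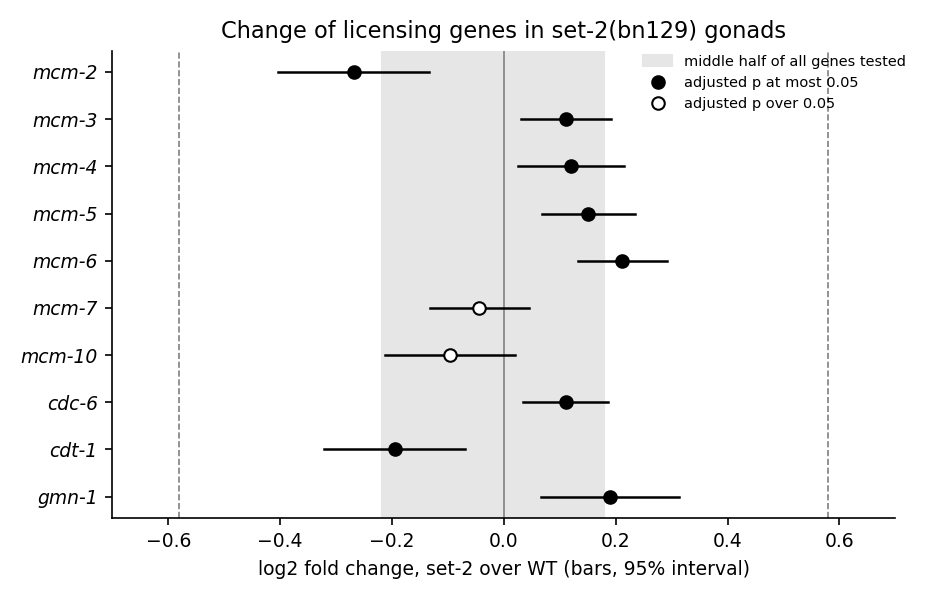
Log2 fold change of each licensing gene, *set-2* over WT, with its 95% confidence interval. Filled points passed an adjusted p-value of 0.05, the grey band spans the quartiles of all genes tested (-0.22 to 0.18), and the dashed lines mark the fold threshold of 0.58, which no interval reaches.

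Among the helicase subunits, 4 were higher, 1 was lower and 1 did not pass the test. *mcm-6* (WBGene00003158, chromosome III, 9794367 to 9798644 on WBcel235) was at 481, 477 and 489 CPM in WT and 555, 567 and 554 CPM in *set-2* libraries. All *set-2* libraries lay above all WT libraries, by a gap of 64.8 CPM as compared with ranges of 12.0 and 13.3 CPM within the genotypes. The log2 fold change was 0.21 (standard error 0.036, edgeR adjusted p = 9.2e-04), a rise of 15.8%. *mcm-5* (WBGene00003157, chromosome III, 4288264 to 4291266) was at 343, 334 and 346 CPM in WT and 370.0, 390.0 and 376 CPM in *set-2* libraries. Again the genotypes did not overlap, and the log2 fold change was 0.15 (standard error 0.038, edgeR adjusted p = 0.0079).

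*mcm-3* (WBGene00003155, chromosome V, 15056719 to 15059599) was at 385, 386 and 396 CPM in WT and 416, 429 and 415 CPM in *set-2* libraries, without overlap. Its rise was smaller, 0.11 (log2, with a standard error of 0.036 and an edgeR adjusted p of 0.029). Its adjusted p was 0.10 without WT replicate 2, 0.074 without WT replicate 1 and 0.074 without *set-2* replicate 2. *mcm-4* (WBGene00003156, chromosome I, 2318291 to 2321817), known in the worm also as the cell cycle gene *lin-6*, was at 356, 372 and 379 CPM in WT and 398, 420 and 385 CPM in *set-2* libraries. The highest WT and the lowest *set-2* library were only 6.19 CPM apart here, as compared with a range of 34.4 CPM among the *set-2* libraries. The log2 fold change of 0.12 (standard error 0.043) had an edgeR adjusted p-value of 0.044, which rose over 0.05 in 5 of the 6 fits that left out a library, to at most 0.14, and stayed at 0.030 without *set-2* replicate 3.

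*mcm-2* (WBGene00003154, chromosome II, 12001509 to 12006625) went the other way. It was at 319, 319 and 283 CPM in WT and 233, 261 and 272 CPM in *set-2* libraries. The spread within each genotype was wider than that of the other subunits, but the lowest WT library was still above the highest *set-2* library. *mcm-2* fell by 0.27 (log2, with a standard error of 0.062 and an edgeR adjusted p of 0.0050), the largest difference of the 10 genes, and passed the test in each of the 14 alternative fits, with log2 fold changes between -0.46 and -0.20. *mcm-7* (WBGene00003159, chromosome V, 4347166 to 4349768) was at 471, 459 and 443 CPM in WT and 429, 451 and 452 CPM in *set-2* libraries, and the genotypes overlapped. Its log2 fold change was -0.04, with a 95% confidence interval of -0.13 to 0.05 (edgeR adjusted p = 0.41).

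Since the subunits assemble into one ring, their transcripts were also compared as a sum and within each library. The summed level of the 6 subunit genes was 909 ± 3.42 RPKM in WT and 954 ± 22.4 RPKM in *set-2* gonads (SD, n = 3), a ratio of 1.05 that depends on the scaling of the libraries. Shares and ratios within a library do not. The share of *mcm-2* in this sum was 12.4%, 12.4% and 11.1% in WT and 8.83%, 9.43% and 10.1% in *set-2* libraries. That of *mcm-6* was 20.4%, 20.3% and 20.9% in WT and 23.01%, 22.4% and 22.5% in *set-2* libraries. The genotypes were separate for both subunits, in opposite directions. Their CPM were already separate in the same directions, so that these shares add little further. A share also falls where a subunit stays level while others rise. *mcm-7*, whose CPM did not pass the test, had a lower share in all *set-2* libraries, 19.01 ± 0.320% against 20.6 ± 0.561% (SD, n = 3), and *mcm-5* a higher one, 16.4 ± 0.0932% against 15.5 ± 0.303% (SD, n = 3). The shares of *mcm-3* and *mcm-4* overlapped between genotypes. The highest subunit exceeded the lowest by 1.66-fold to 1.89-fold in WT and by 2.23-fold to 2.61-fold in *set-2* libraries.

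**Figure D3:**
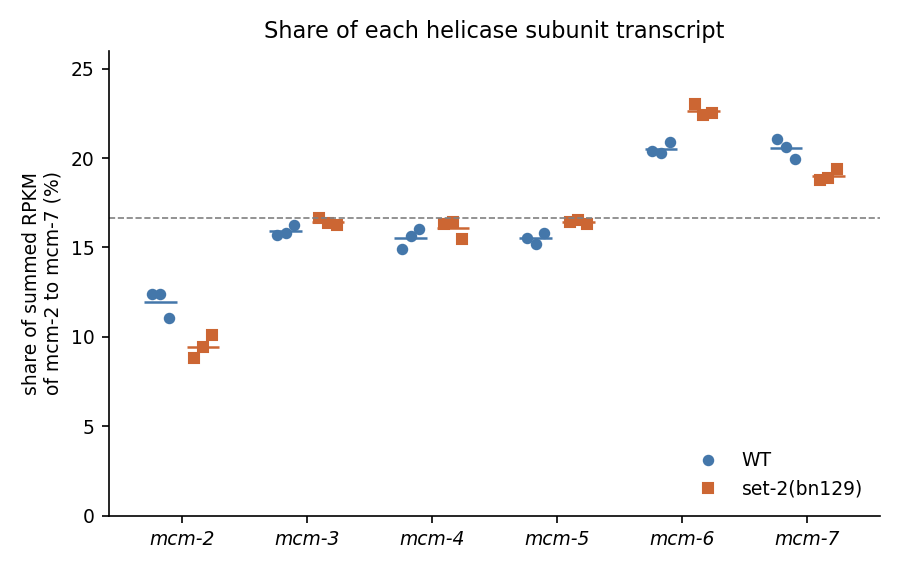
Share of each subunit in the summed RPKM of *mcm-2* to *mcm-7*, in percent, in the 3 WT libraries (circles) and the 3 *set-2(bn129)* libraries (squares), with group means as lines and an equal share as the dashed line. The share of *mcm-2* is 12.0% in WT and 9.45% in *set-2* gonads, and that of *mcm-6* rises from 20.5% to 22.6%.

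Ratios between pairs of subunits were taken within each library. There are 15 pairs, and in 11 of them the 3 *set-2* libraries did not overlap the 3 WT libraries. Over all pairs of genes within the members' range of mean CPM, 60% did not overlap, and the 15 pairs share 6 genes, so that their count alone shows little. All 5 pairs with *mcm-2* were among these 11, and 4 of the 5 pairs with *mcm-7*. For *mcm-2* against *mcm-3*, *mcm-4*, *mcm-5* or *mcm-6* the separation was fixed by the single genes, which were separate in opposite directions. Those pairs, and the p-value of such a pair, therefore add no further result. The ratio of *mcm-2* to *mcm-6* was 0.607, 0.612 and 0.530 in WT and 0.384, 0.420 and 0.449 in *set-2* libraries, a difference of -0.48 on the log2 scale (exact permutation test over libraries, two-sided, p = 0.1, the smallest that 3 against 3 libraries can give, so that no pair can pass 0.05 before or after adjustment over 15 pairs). By contrast, the ratio of *mcm-3* to *mcm-4* differed by -0.01 on the log2 scale (exact permutation test, two-sided, p = 0.8).

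Of the factors that load the helicase, *cdc-6* (WBGene00000382, chromosome I, 4268070 to 4270287) encodes an ATPase that acts together with the origin recognition complex. It was at 122, 121 and 120.0 CPM in WT and 128, 131 and 133 CPM in *set-2* libraries, and its WT libraries had the narrowest relative spread of the 10 genes. The rise was 0.11 (log2, with a standard error of 0.035 and an edgeR adjusted p of 0.024), without overlap between genotypes, but DESeq2's Wald test gave an adjusted p-value of 0.060. In edgeR fits it also rose over 0.05 without WT replicate 2 (0.082), WT replicate 3 (0.068), *set-2* replicate 2 (0.057) or *set-2* replicate 3 (0.075).

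*cdt-1* (WBGene00000413, chromosome I, 3223160 to 3228104), whose product is degraded in S phase so that origins fire once, was the least abundant licensing transcript per length. It was at 50.8, 54.4 and 52.6 CPM in WT and 45.5, 49.5 and 43.0 CPM in *set-2* libraries. The nearest libraries of the genotypes were 1.33 CPM apart, less than the range within either genotype (3.51 and 6.52 CPM). *cdt-1* fell by 0.20 (log2, with a standard error of 0.057 and an edgeR adjusted p of 0.018). The adjusted p-value was 0.076 without WT replicate 2, 0.055 without *set-2* replicate 1, 0.073 without *set-2* replicate 3 and 0.052 when libraries were scaled to total counts without ribosomal RNA genes.

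The inhibitor gene *gmn-1* (WBGene00013552, chromosome III, 12223896 to 12225331) moved opposite to *cdt-1*, whose product geminin binds. It was at 56.5, 54.02 and 55.4 CPM in WT and 68.7, 61.4 and 59.3 CPM in *set-2* libraries, so that the mutant libraries were all higher and also more variable. The log2 fold change was 0.19 (standard error 0.056, edgeR adjusted p = 0.019). It was 0.13 without *set-2* replicate 1, the highest library, with an adjusted p-value of 0.062, and the adjusted p-value was 0.075 without WT replicate 2. The ratio of *gmn-1* to *cdt-1* per length was 2.30, 2.06 and 2.18 in WT and 3.13, 2.57 and 2.86 in *set-2* libraries. This is a difference of 0.38 on the log2 scale without overlap (exact permutation test, two-sided, p = 0.1, the smallest possible). The separation and its p-value follow from both genes being separate in opposite directions, and so add no further result.

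*mcm-10* (WBGene00012935, chromosome III, 11317570 to 11326664) was at 61.5, 60.8 and 65.4 CPM in WT and 59.3, 61.8 and 54.7 CPM in *set-2* libraries, which overlapped. Its log2 fold change of -0.10 did not pass the test (95% confidence interval -0.21 to 0.02, edgeR adjusted p = 0.17).

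**Figure D4:**
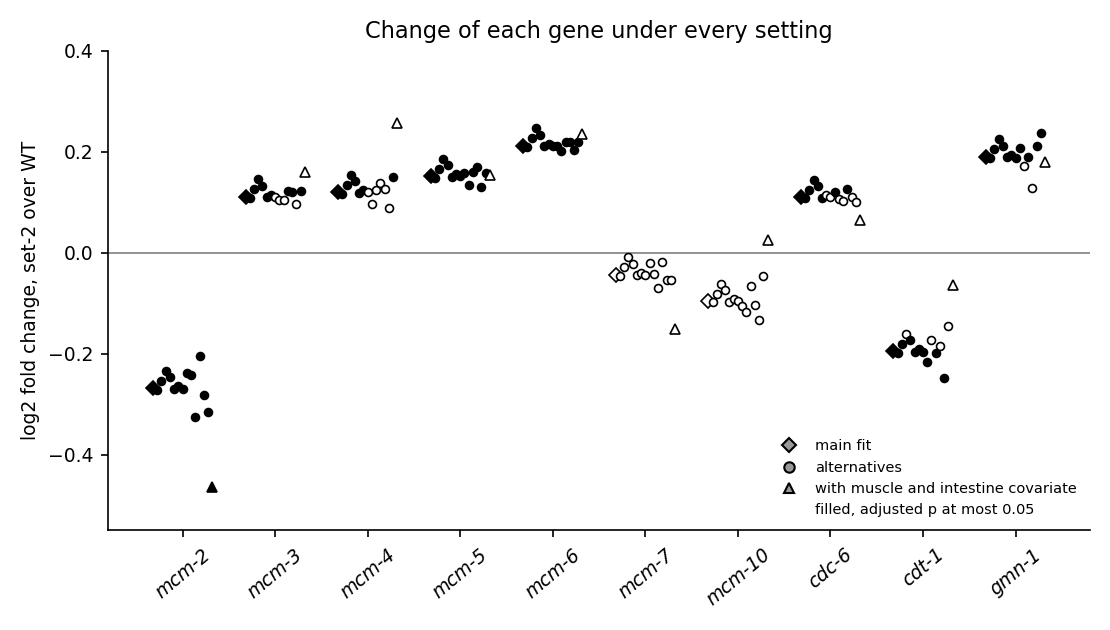
Log2 fold change of each licensing gene in the main fit (diamonds), in 13 alternative fits (circles) and with the muscle and intestine covariate (triangles), where filled symbols passed an adjusted p-value of 0.05. *mcm-2* passes throughout, and *mcm-5* and *mcm-6* in all but the covariate fit, while *mcm-7* and *mcm-10* pass in none.

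All 10 genes are autosomal, with 3 on chromosome I, 1 on II, 4 on III and 2 on V. Exons of 7 of them overlap exons of genes on the opposite strand, by 4 to 147 bases, the most at *mcm-10*, and 0 overlap a gene on the same strand. Protein-coding genes on the same strand within 500 bases were found for 6 of the 10. *ZK632.2*, which starts 463 bases downstream of *mcm-6*, rose from 138 ± 1.99 to 167 ± 7.14 CPM (SD, n = 3), 0.27 on the log2 scale as compared with 0.21 for *mcm-6*. *C43E11.9*, 103 bases downstream of *cdc-6*, rose by 0.26, and *Y39G10AR.32*, 208 bases upstream of *mcm-4*, also rose by 0.26 (edgeR adjusted p = 0.0021 and 0.015). *nth-1*, a DNA glycosylase gene 277 bases upstream of *mcm-5*, was at 0.17 (log2, edgeR adjusted p = 0.11). *rom-5*, 205 bases downstream of *cdt-1*, was at 0.07 (log2, edgeR adjusted p = 0.50), and *Y75B8A.18*, 308 bases upstream of *gmn-1*, fell by 0.34 (edgeR adjusted p = 0.0013) while *gmn-1* rose.

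The remaining replication machinery was described with 6 lists that held 73 genes, of which 67 were matched by symbol and tested. Of these 67, 14 were higher, 10 were lower and 24 in all (35.8%) passed the adjusted p-value, against 41.4% of all genes, and 0 did so past the fold threshold. That count was also 0 at an unadjusted p-value under 0.05 and with DESeq2. Their median log2 fold change was 0.04, as compared with 0.11 for the licensing genes and 0.00 over all genes tested.

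In the origin recognition complex, which marks origins and receives CDC-6, 1 of 5 genes was higher and 1 lower. *orc-4* rose from 63.4 ± 1.63 to 76.4 ± 2.06 CPM (SD, n = 3), 0.27 on the log2 scale (edgeR adjusted p = 4.9e-04), and *orc-2* fell from 60.3 ± 2.71 to 50.7 ± 2.64 CPM (SD, n = 3), by 0.25 (edgeR adjusted p = 0.0032). These counts are near the shares of all genes tested, 20.3% higher and 21.1% lower. The counts in the lists that follow are to be read beside the same shares. With the muscle and intestine covariate, 2 of the 15 genes named from these lists kept their call, *psf-2* and *ubxn-3*.

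Among 10 genes tested that activate the loaded helicase, 2 were higher and 3 lower. The largest rise was that of *psf-2*, a subunit of the GINS complex that joins the MCM ring at the fork, from 62.0 ± 1.64 to 87.7 ± 3.68 CPM (SD, n = 3), 0.50 on the log2 scale (edgeR adjusted p = 1.3e-05). *mus-101*, the worm TopBP1, fell by 0.24 (edgeR adjusted p = 4.6e-04) and *dnsn-1*, the worm DONSON, by 0.13 (edgeR adjusted p = 0.022). For *dnsn-1* this was 0.083, 0.075, 0.075 and 0.060 without WT replicate 1, WT replicate 2, *set-2* replicate 1 and *set-2* replicate 3. Its edgeR adjusted p was also 0.091 with total counts without ribosomal RNA genes and 0.1 without the low count filter. DESeq2's Wald test gave an adjusted p of 0.08 for *dnsn-1*. Both proteins act in assembly of the active helicase.

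Of 23 fork genes, 6 were higher and 2 lower. *ctf-18*, of an alternative clamp loader, rose by 0.17 (edgeR adjusted p = 0.0026). *div-1*, encoding the B subunit of DNA polymerase alpha, fell by 0.17 (edgeR adjusted p = 0.0037), and *rpa-4*, a weakly expressed relative of a single-strand binding protein at 11.9 ± 0.882 CPM in WT (SD, n = 3), fell by 0.45 (edgeR adjusted p = 0.0054).

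Of 13 genes for turnover of licensing factors and removal of the helicase, 2 were higher and 2 lower. *cul-4*, the cullin of the ubiquitin ligase that targets CDT-1, rose from 145 ± 1.08 to 164 ± 1.73 CPM (SD, n = 3), 0.17 on the log2 scale (edgeR adjusted p = 0.0019). Its partners *ddb-1* and *cdt-2*, looked up after the values were seen, stood at 0.07 and 0.02 (log2, edgeR adjusted p of 0.17 and 0.71). *ubxn-3*, a cofactor of the CDC-48 segregase in helicase removal, fell by 0.26 (edgeR adjusted p = 3.3e-04), and *cdc-48.2*, one of a pair of genes for that segregase, fell by 0.21 (edgeR adjusted p = 0.0033). Its close copy *cdc-48.1*, with which reads could be shared and which was looked up after the values were seen, was at 838 ± 15.2 CPM in WT and 909 ± 39.9 CPM in *set-2* gonads (SD, n = 3). This is 0.12 on the log2 scale, opposite in direction, with all *set-2* libraries above WT (edgeR adjusted p = 0.052), so that no fall of the segregase transcripts as a whole was shown.

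Of 11 genes of G1/S control, 2 were higher and 2 lower. *cdc-25.2*, a phosphatase that activates cyclin-dependent kinases, rose by 0.34 (edgeR adjusted p = 0.019, but 0.068 without WT replicate 3 and 0.082 without *set-2* replicate 3), whereas *cki-2*, an inhibitor of such kinases, fell by 0.25 (edgeR adjusted p = 0.0046) and *lin-23*, of a ubiquitin ligase, by 0.22 (edgeR adjusted p = 6.7e-04). Of 5 genes of nucleotide supply, 1 passed. This was *tyms-1*, thymidylate synthase, which rose from 63.5 ± 0.707 to 79.3 ± 2.73 CPM (SD, n = 3), 0.32 on the log2 scale (edgeR adjusted p = 1.5e-04).

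**Figure D5:**
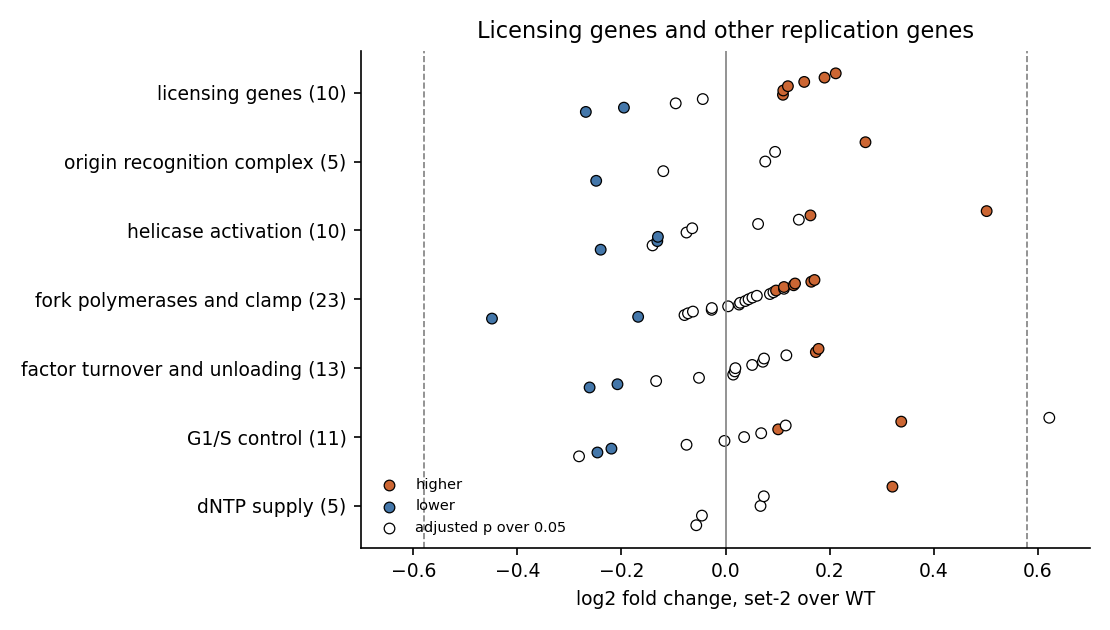
Log2 fold change, *set-2* over WT, of the 10 licensing genes and of the genes tested in 6 lists of other replication genes, with the number of genes in parentheses. Coloured points passed an adjusted p-value of 0.05, dashed lines mark the fold threshold of 0.58, and the coloured points lie on both sides of 0 except in nucleotide supply, between -0.45 for *rpa-4* and 0.50 for *psf-2*.

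Markers of the stages of germ cells that cycle or have just stopped were read from the same fit. Of 6 mitotic zone markers, 2 were lower, and the list summed to 916 to 949 CPM in WT and 895 to 942 CPM in *set-2* libraries. The lower ones were *sygl-1*, a target of the GLP-1 receptor in stem cells, at -0.91 (log2, edgeR adjusted p = 0.0059), and *fbf-1*, at -0.14 (0.033). *sygl-1* varied widely, at 21.7, 19.5 and 13.5 CPM in WT and 6.71, 9.39 and 12.8 CPM in *set-2* libraries. *glp-1* (0.06), *fbf-2* (0.02), *lst-1* (0.0004) and *nos-3* (-0.05) did not pass. Over all genes tested, 21.1% were lower. Most of the list sum came from *glp-1* and *nos-3*, at means of 414 and 272 CPM in WT. *sygl-1* had a WT mean of 18.2 CPM, so the sum says little about it. Of 13 meiotic prophase markers, 3 were higher and 3 lower, with sums of 1195 to 1229 CPM in WT and 1196 to 1267 CPM in *set-2* libraries. The part of these markers in the changes of the licensing genes was not tested. Nor was that of the germline, oocyte, sperm, somatic gonad and hypodermis markers or of the ribosomal RNA share. That of the muscle and intestine markers was not tested apart from the covariate fit.

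Over the 6 libraries, the mean log2 level of the helicase subunit genes was most like that of *unc-103*, *Y56A3A.30*, *F38E9.1*, *ugt-61* and *nhr-20*, with Pearson correlations of 0.994, 0.993, 0.992, 0.989 and 0.988. These 5 genes were weakly expressed, at 1.11 to 9.40 CPM in WT gonads. The points share genotype and library, and so the correlation is a description alone. The single subunits followed their own mean unequally, with correlations of 0.84 for *mcm-5*, 0.78 for *mcm-3*, 0.75 for *mcm-6*, 0.71 for *mcm-4*, 0.07 for *mcm-7* and -0.34 for *mcm-2*. Each subunit is part of that mean, so that these correlations are partly built in.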

How the data were processed

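The authors depleted total RNA of ribosomal RNA, sequenced single reads, aligned them with STAR 2.4.1d (genome release WS254), removed reads of a mapping quality under 10 with SAMtools 0.1.19 and counted reads per gene with htseq-count 0.7.2. The labels call the RNA polyadenylated. The deposited counts are not normalized, and the strand setting of the counting is not given in the sources used here. A deposited table with the authors' own comparison was not used.

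Counts were tested with edgeR 4.0.16 in R 4.3.3 (filterByExpr, TMM, glmQLFit, glmQLFTest), with genotype as the only term, over 9431 genes. Intervals come from the coefficient without a prior count. DESeq2 1.42.0 was an alternative. Other alternatives changed the scaling, the low count filter, the replicate block, the covariate or left out 1 library. The edgeR fit was tested on simulated data. Positions and exon lengths are from the Ensembl annotation of WBcel235, in which 46549 identifiers were found. CPM and RPKM were computed here from the deposited counts. Libraries of a genotype differed by more than sampling noise (chi-square per degree of freedom of 9.15 to 28.9). The series describes the 3 libraries of a genotype as biological replicates. Members and lists were chosen with earlier results of these data known. Genes named are the 10 members, *set-2*, up to 3 genes per list with the smallest adjusted p-value, the 5 genes most alike in profile, and same-strand neighbours within 500 bases. The neighbours, *ddb-1*, *cdt-2*, *cdc-48.1* and all markers named by symbol were chosen after their values were seen. No sequence table was used here.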

Additional observations from a re-analysis of the deposited data

How the results depend on the processing

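Of the 10 licensing genes, *mcm-2*, *mcm-7*, *mcm-5* and *mcm-6* kept their direction and their side of the threshold in 14, 14, 13 and 13 of 14 alternatives. *mcm-10* reversed to 0.026 (log2) with the covariate, and the cause was not tested. The number called higher, 6, was 3 with the replicate block and 0 with the covariate for muscle and intestine markers (2 at an unadjusted p-value under 0.05). The number called lower, 2, was 1 with library sizes without ribosomal RNA genes and 1 with the covariate. Fits that left out 1 library gave 2 to 5 genes higher, 1 to 2 lower and 0 past the fold threshold. The median of the helicase subunits was 0.16 with the covariate and 0.09 to 0.14 without single libraries. With the covariate, 218 of all genes were higher, 476 lower and 435 past the fold threshold, against 1915, 1993 and 1447. Without single libraries these were 1421 to 1758, 1566 to 1958 and 1233 to 1619. The largest shift of the median of all genes under another scaling was 0.034 (log2). Same-numbered libraries of the genotypes showed no shared deviations (correlations of -0.086, -0.048 and -0.17). These values cannot show whether such libraries were prepared together, which the labels do not say. The block moved no other count of members. Of 168 counts over the replication lists under alternatives, 40 moved by over 1.5 times. The 15 genes named from those lists lost their call in 22 of 210 fits and reversed in 0.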
